A study of Mus musculus with 3 samples.

Results

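The 10 genes described here, Ccn2, Ccn1, Ankrd1, Amotl2, Lats2, Nuak2, Crim1, Asap1, F3 and Gadd45a, are direct target genes of YAP and TEAD. The choice was made by name and by no threshold on these arrays, but with earlier results of these data known. The 10 genes were followed over 3 one-colour microarrays of mouse liver. The list came to 10 of the 20284 genes that could be named on the array, and to 10 of the 13626 whose probe lay well above background on every array. Each array held Cy3-labelled RNA from the liver of C57BL/6J mice at 2 days, in which human YAP had been introduced by hydrodynamic tail vein injection (HTVi), a rapid injection of plasmid in a large volume that transfects a fraction of hepatocytes. All groups thus carried a YAP transgene, and they differed in its form. YAP (WT) is the wild-type protein. YAP (1SA) has alanine in place of the serine in the 14-3-3 binding site, and YAP (2SA) has a further serine to alanine change. Expression was driven from the pLIVE vector by the mouse AFP enhancer II and minimal albumin promoter, which are specific to hepatocytes, and the methods give 8-week-old male mice for the injection. No uninjected liver is analysed here, so the reference throughout is the YAP (WT) liver. The label of the WT sample ends in a 2, without a statement of whether this stands for a replicate or a set, and every difference of a mutant from YAP (WT) rests on that 1 array.

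Each group held 1 array, and whether its RNA came from 1 animal or from a pool was not given. No spread between livers could therefore be measured, no test was run, and a difference between groups cannot be told apart from a difference between livers. The errors given are spot errors, computed from the error that the scanner software assigns to each spot. For the 10 genes they were not measured from repeated spots, and they hold no animal-to-animal variation. Because each array measured RNA of whole liver with transfected and untransfected cells together, a change in RNA per cell and a change in the number of cells of a type cannot be told apart.

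YAP is a transcriptional coactivator that has no DNA-binding domain of its own. When the Hippo kinases MST and LATS are active they phosphorylate YAP, which is then held in the cytoplasm by 14-3-3 proteins or degraded. Unphosphorylated YAP enters the nucleus, binds TEAD transcription factors that sit on the GGAATG element, and switches on genes of cell growth, adhesion and the extracellular matrix. In liver this pathway restrains organ size, and in resting hepatocytes it keeps YAP activity low. Several target genes feed back on the pathway, Lats2 as a kinase of YAP and Amotl2 as a scaffold that binds and retains it.

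The promoters were read first, since the TEAD element is the feature that the members would share in sequence. RefSeq promoter windows of GRCm38.p6, from 250 bases before to 50 bases after the start site, were available for 7 of the 10 genes. The letters GGAATG were searched on both strands, so that CATTCC on the gene's strand is a match on the other strand. They were found in 5 of the 7 genes, Ccn1, Ankrd1, Amotl2, Crim1 and Lats2, compared with 16.6% of all 27025 genes with a window. Of the 8 other published target genes with a window, 2 held the letters. Ccn1 and Ankrd1 are shown as the 250 bases upstream of their start sites, because both are classical YAP reporters with the motif in the proximal promoter and yet behaved differently on these arrays. The capitals mark the TEAD letters.

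Ccn1 (chr3:145649986-145650235, minus strand): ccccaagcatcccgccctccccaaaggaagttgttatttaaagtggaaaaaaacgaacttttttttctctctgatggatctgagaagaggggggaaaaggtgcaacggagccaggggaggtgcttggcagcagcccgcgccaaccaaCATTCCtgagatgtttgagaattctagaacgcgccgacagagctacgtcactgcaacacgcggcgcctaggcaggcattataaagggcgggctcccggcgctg
Ankrd1 (chr19:36119845-36120094, minus strand): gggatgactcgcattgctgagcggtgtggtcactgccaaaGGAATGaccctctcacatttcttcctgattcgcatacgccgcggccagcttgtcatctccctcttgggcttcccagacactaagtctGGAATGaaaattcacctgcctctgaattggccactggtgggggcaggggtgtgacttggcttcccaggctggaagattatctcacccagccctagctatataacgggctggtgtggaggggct

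In Ccn1 the match began at -103 relative to the start site, on the opposite strand, and a TATAAA box lay at -25. Ankrd1 held a pair of matches, at -210 and -123, both on the gene's strand. The sites of the other 3 genes are shown with their flanks.

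Amotl2 (chr9:102717727-102717756, plus strand): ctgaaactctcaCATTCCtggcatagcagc
Crim1 (chr17:78200157-78200186, plus strand): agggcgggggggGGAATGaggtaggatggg
Lats2 (chr14:57746101-57746130, minus strand): gtgacgcccgtGGAATGccaacaatgtagc

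The Amotl2 match began at -65 on the opposite strand and the Crim1 match at -79 on the gene's strand. The Lats2 match lay just after the start site, at 5, in 1 of the 2 windows listed for that gene. F3 and Gadd45a held no match in their windows. F3 instead held the AP-1 letters TGANTCA at -146 and -135, which 8.97% of genes held, and it was the only 1 of the 7 members to do so. The capitals in the F3 sequence mark these letters.

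F3 (chr3:121723377-121723426, plus strand): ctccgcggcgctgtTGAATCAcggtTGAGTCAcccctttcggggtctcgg

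The letters TATAAA were found in Ccn1 and, on the opposite strand, in F3, against 15.7% of genes. The TEAD letters were then read over all genes on these arrays. The 1617 measured genes with the letters in a window had a median 2SA minus WT difference of -0.02, and 1.24% of them were at least 2-fold higher in YAP (2SA). The 9252 measured genes with a window and no match had a median of -0.03, and 1.06% of them were 2-fold higher. A match of 6 letters is a description of the window and not evidence of TEAD binding.

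**Figure D1:**
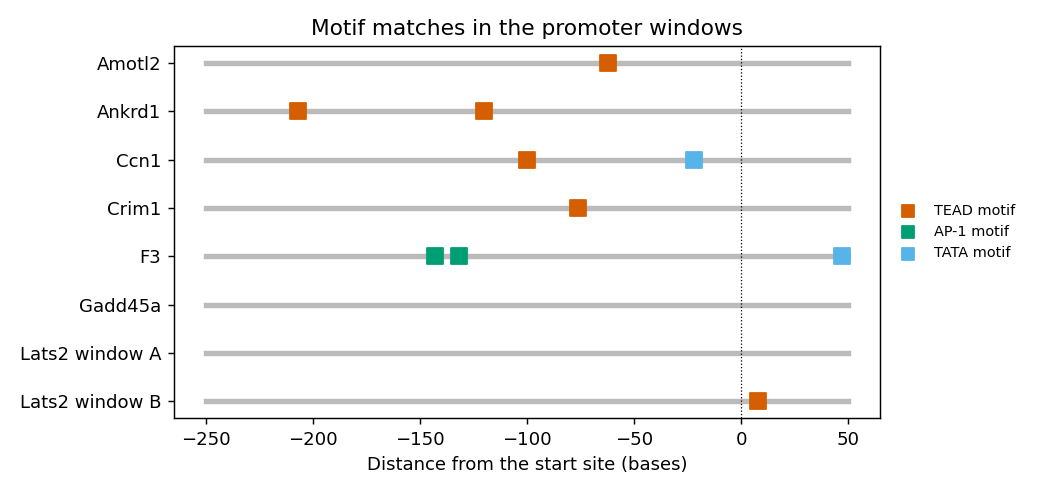
Matches of the TEAD, AP-1 and TATA letters (squares) in the RefSeq promoter windows of 7 target genes, with distance from the start site in bases on the x axis. TEAD matches lie in Ccn1, Ankrd1, Amotl2, Crim1 and 1 of the 2 Lats2 windows, and F3 holds the AP-1 pair.

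Each gene was then read from its brightest probe, as spot intensity and as intensity scaled to the array's 75th percentile, so that a scaled level of 1 equals that percentile. The 75th percentiles were close to each other, at 290.8 in WT, 275.7 in 1SA and 319.5 in 2SA. The 10 genes had 12 probes, 1 each for 8 genes and 2 each for Lats2 and F3. All 12 probes were marked well above background on every array, and each was read from 1 spot per array. Differences are log2 differences of the scaled values, given with the spot standard error (SE). For the brightest probe of each gene except Ankrd1, the software's spot error was about 10% on every array. The spot SE of these genes was therefore nearly constant, at about 0.20. For them, 2 spot SE is close to a fixed cutoff on the difference and not a measured precision.

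In the YAP (2SA) liver most target genes stood above the YAP (WT) liver. Ccn2, Ccn1, Gadd45a and Amotl2 were more than 2-fold higher, and 9 of the 10 genes were higher by some amount. The YAP (1SA) liver differed less, with a median difference of 0.18 from YAP (WT) and opposite signs for Ccn2 and Ccn1. Ankrd1 was the exception among the 10, since it was level between YAP (WT) and YAP (2SA) and low in YAP (1SA).

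**Figure D2:**
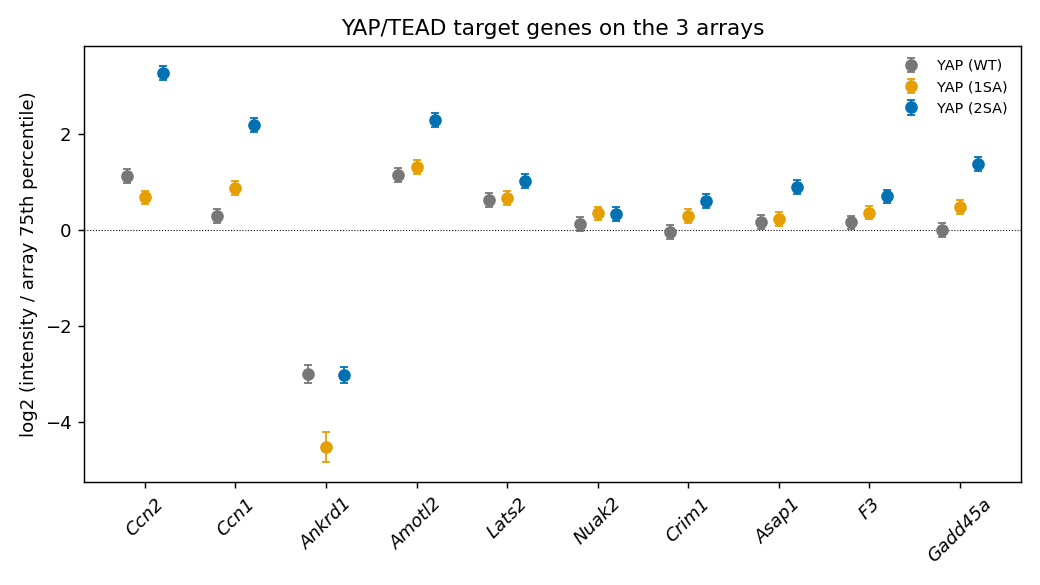
Scaled intensity of each target gene on the 3 arrays, as log2 of intensity over the array's 75th percentile on the y axis. Points are single arrays and bars are plus and minus 1 spot error. YAP (2SA) is the highest point for 8 of the 10 genes, and Ankrd1 lies far below the 75th percentile on every array.

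The secreted matricellular proteins came first. Ccn2 (NM_010217), also called Ctgf, encodes a matrix-associated growth factor and is the most widely used readout of YAP activity. Its intensity was 632.5 in the WT liver, 441.4 in 1SA and 3092 in 2SA, which corresponded to scaled levels of 2.17, 1.60 and 9.68. The 2SA liver stood well above the others, and the 1SA liver was the lowest. Ccn2 was 4.45-fold higher in YAP (2SA) than in YAP (WT), a log2 difference of 2.15 ± 0.20 (spot SE), and this ranked 13 of 13626 genes from the most raised. In YAP (1SA) it was 1.36-fold lower than in YAP (WT), with a log2 difference of -0.44 ± 0.20. That difference was 2.16 times its spot SE, and it ranked 1073 of 13626 genes from the lowest. The paper of these data, by real-time PCR, reported Ctgf raised in YAP (1SA) and YAP (2SA) livers and not in YAP (WT). The lower 1SA value on this array differs from that report, which covers the first days after injection. The baseline of the PCR is not stated in the paper's main text, while the reference here is the single YAP (WT) array. Between the mutants Ccn2 was 6.05-fold higher in YAP (2SA), at 2.60 ± 0.20, rank 11.

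Ccn1 (NM_010516), also called Cyr61, encodes a related matricellular protein that binds integrins. Its intensity was 356.4 in WT, 507.5 in 1SA and 1453 in 2SA, so the 3 livers stood in the order WT, 1SA, 2SA. Both steps were wider than the spot error. YAP (1SA) was 1.5-fold above YAP (WT), at 0.59 ± 0.20 and rank 419. YAP (2SA) was 3.71-fold above YAP (WT), at 1.89 ± 0.20 and rank 18, and 2.47-fold above YAP (1SA), at 1.31 ± 0.20 and rank 167. Ccn1 and Ccn2 therefore shared the high level in YAP (2SA) and differed in YAP (1SA), where Ccn1 was above YAP (WT) and Ccn2 below it.

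The other secreted or surface proteins were Crim1 and F3. Crim1 (NM_015800) encodes a transmembrane protein with cysteine-rich repeats that binds bone morphogenetic proteins. Its intensity was 284.2 in WT, 336.0 in 1SA and 484.9 in 2SA. The level was highest in YAP (2SA), 1.55-fold above YAP (WT) at 0.64 ± 0.20. The difference of YAP (1SA) from YAP (WT) was 0.32 ± 0.21, within 2 spot SE.

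F3 (NM_010171) encodes tissue factor, the initiator of blood coagulation. Its brighter probe read 324.7 in WT, 355.3 in 1SA and 518.9 in 2SA, and its dimmer probe 42.5, 35.5 and 60.9. Both probes were highest in YAP (2SA). The brighter probe was 1.45-fold higher in YAP (2SA) than in YAP (WT), at 0.54 ± 0.20, and the dimmer probe 1.30-fold higher, at 0.38 ± 0.24. The probes disagreed in sign for YAP (1SA) against YAP (WT), with 0.21 ± 0.20 for the brighter and -0.18 ± 0.26 for the dimmer, and neither exceeded 2 spot SE.

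The feedback genes of the Hippo pathway were read next. Amotl2 (NM_019764) encodes an angiomotin-like scaffold of cell junctions. Its intensity was 647.2 in WT, 685.4 in 1SA and 1559 in 2SA. The WT and 1SA livers were alike within the spot error, with a difference of 0.16 ± 0.20, and the 2SA liver stood apart. YAP (2SA) was 2.19-fold above YAP (WT), at 1.13 ± 0.20 and rank 112, and 1.96-fold above YAP (1SA), at 0.97 ± 0.20.

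Lats2 encodes the kinase that phosphorylates YAP directly. Its brighter probe (NM_015771) read 450.0 in WT, 438.3 in 1SA and 652.4 in 2SA, and its dimmer probe (NM_153382) read 45.4, 46.6 and 75.1. Both probes placed YAP (2SA) highest, and on both the gap of YAP (1SA) from YAP (WT) was smaller than the spot SE. The difference of YAP (2SA) from YAP (WT) was 0.40 ± 0.20 on the brighter probe, a 1.32-fold excess, and 0.59 ± 0.23 on the dimmer probe, a 1.5-fold excess. Nuak2 (NM_001195025), an AMPK-related kinase that acts on actomyosin and promotes YAP activity, read 319.5 in WT, 350.4 in 1SA and 404.4 in 2SA. After scaling both mutants stood slightly above YAP (WT), at 0.21 ± 0.20 for 1SA and 0.20 ± 0.20 for 2SA, and they were level with each other, with a difference of -0.01 ± 0.20. Nuak2 gave no difference beyond 2 spot SE in any of the 3 comparisons.

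The remaining genes act inside the cell. Gadd45a (NM_007836), a stress-induced protein of growth arrest and DNA repair that is also a p53 target, read 292.0 in WT, 386.1 in 1SA and 824.3 in 2SA. Its 3 levels stood in the order WT, 1SA, 2SA, as those of Ccn1 did. YAP (2SA) was 2.57-fold above YAP (WT), at 1.36 ± 0.20 and rank 56, and 1.84-fold above YAP (1SA), at 0.88 ± 0.20. YAP (1SA) was 1.39-fold above YAP (WT), at 0.48 ± 0.20. Asap1 (NM_010026), a GTPase-activating protein for ARF that acts on focal adhesions, read 327.4 in WT, 323.4 in 1SA and 593.2 in 2SA. Its YAP (WT) and YAP (1SA) levels differed by 0.06 ± 0.20, and YAP (2SA) was 1.65-fold above YAP (WT), at 0.72 ± 0.20, and 1.58-fold above YAP (1SA), at 0.66 ± 0.20.

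Ankrd1 (NM_013468) encodes a nuclear ankyrin-repeat protein of muscle and injured tissue. Its intensity was 36.5 in WT, 12.1 in 1SA and 39.7 in 2SA, with spot errors of 12.6%, 21.6% and 11.5%. All 3 spots were dim, and the 1SA value lay close to 10.3, the lowest intensity marked well above background on that array. YAP (2SA) did not differ from YAP (WT) beyond the spot error, at -0.02 ± 0.25, with rank 6384. YAP (1SA) was 2.86-fold below YAP (WT), at -1.52 ± 0.36, which ranked 34 of 13626 genes from the lowest. The 2.83-fold excess of YAP (2SA) over YAP (1SA), 1.503 ± 0.35, came from the low 1SA value. With normexp, a background correction that adds an offset and so compresses dim spots, these differences shrank to -0.38 for YAP (1SA) against YAP (WT) and 0.32 between the mutants.

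Markers of other liver cells were read beside Ankrd1. Markers of mesothelium, the cell layer that covers the liver, were also low in YAP (1SA). Msln read 248.4 in WT, 111.6 in 1SA and 187.7 in 2SA, and Wt1 read 46.2, 15.2 and 32.3, so that their 1SA minus WT differences were -1.08 and -1.53. Upk3b read 39.7 in WT, 10.7 in 1SA and 42.5 in 2SA. It was not well above background on 1SA, so no fold is given for it. Upk1b was not above background on any array, and 3 of the 5 listed mesothelial markers were measured on all of them. The smooth muscle gene Cnn1, named after its value was seen, read 76.0, 12.1 and 68.1 and differed by -2.57 between 1SA and WT. Its 1SA value, like that of Ankrd1, lay close to 10.3, the lowest intensity marked well above background on that array. Wt1, and the bile duct markers Epcam at 16.5 and Krt7 at 17.5, were also dim on 1SA. The 6 bile duct markers, Krt19 among them and also on the mesothelial list, had a summed scaled level of 13.2 in WT, 4.37 in 1SA and 10.9 in 2SA. Most of that sum was Spp1, and the other 5 summed to 1.04, 0.706 and 1.06. Their 1SA minus WT differences were -0.90 for Epcam, -0.82 for Krt19, -0.73 for Krt7 and -0.29 for Sox9, while Cftr differed by 0.43. The part of these cells in the Ankrd1 value was not tested.

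Taken as a list, the 10 genes had a median difference of 0.18 for YAP (1SA) against YAP (WT), 0.68 for YAP (2SA) against YAP (WT) and 0.77 for YAP (2SA) against YAP (1SA). The medians over all 13626 measured genes were -0.002, -0.03 and -0.03. The means of the list were 0.01, 0.90 and 0.89, and the mean for YAP (1SA) was pulled down by Ankrd1. Both mutant differences share the WT array, so a spot or a liver that is off on that array moves both of them.

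For YAP (1SA) against YAP (WT), 8 of the 10 genes were higher, where 49.7% of all genes were. None was at least 2-fold higher, against 0.727% of all genes, and Ankrd1 was the 1 gene at least 2-fold lower, against 1.14% of all genes. At 2 spot SE, Ccn1 and Gadd45a were higher, against 5.11% of all genes, and Ccn2 and Ankrd1 were lower, against 7.8% of all genes. The list thus had no common direction in YAP (1SA) beyond the spot error.

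For YAP (2SA) against YAP (WT), 9 of the 10 genes were higher, where 43.6% of all genes were. Ccn2, Ccn1, Gadd45a and Amotl2 made 4 of 10 at least 2-fold higher, against 1.12% of all genes, and none was 2-fold lower, against 0.543%. With Asap1, Crim1 and F3, 7 of 10 were higher by at least 2 spot SE, against 6.41% of all genes. Lats2 lay just short of that, at 1.96 spot SE. The 4 largest differences lay between 5.55 and 10.6 spot SE.

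For YAP (2SA) against YAP (1SA), 9 of the 10 genes were higher, where 45.6% of all genes were. Ccn2, Ankrd1 and Ccn1 made 3 of 10 at least 2-fold higher, against 2.47% of all genes, and none was 2-fold lower, against 1.12%. By at least 2 spot SE, 6 were higher, against 10.4% of all genes, namely Ccn2, Ccn1, Ankrd1, Amotl2, Gadd45a and Asap1.

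YAP (2SA) was the highest of the 3 arrays for 8 of the 10 genes, against 31.3% of all genes. The order WT below 1SA below 2SA was seen for 7 of the 10, against 11.3% of all genes, and in Ccn1 and Gadd45a both steps exceeded 2 spot SE. In the other 5 of these 7, Amotl2, Lats2, Crim1, Asap1 and F3, YAP (WT) and YAP (1SA) did not differ beyond 2 spot SE. The single array per group limits all of these counts to a description of 3 livers.

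**Figure D3:**
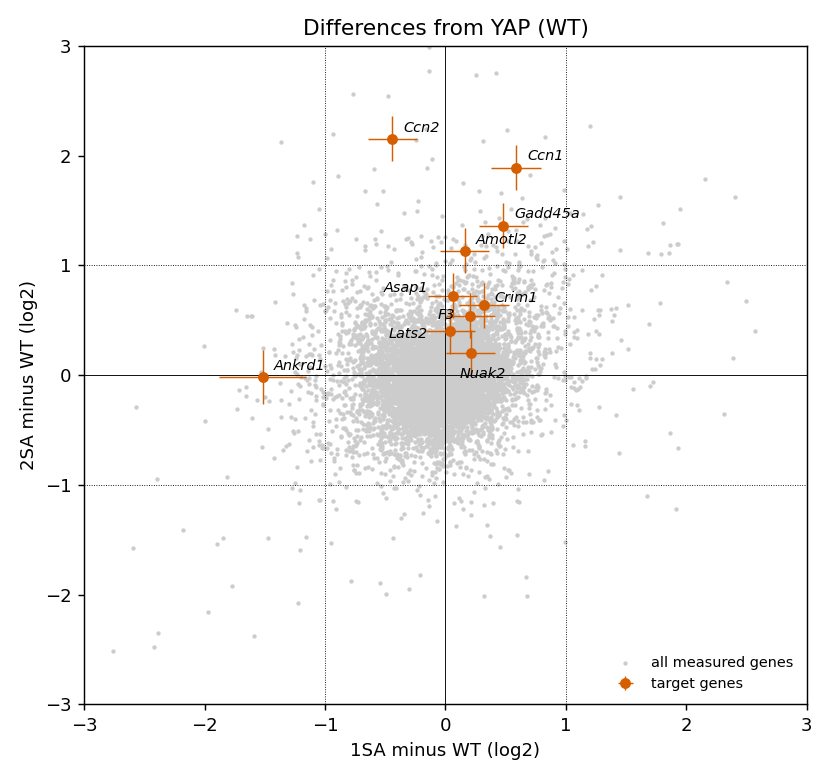
Log2 difference of YAP (1SA) from YAP (WT) on the x axis and of YAP (2SA) from YAP (WT) on the y axis, for all measured genes (grey) and the 10 target genes (orange, bars are plus and minus 1 spot SE). Dotted lines mark 2-fold, and 8 genes lie outside the axes. Ccn2, Ccn1, Gadd45a and Amotl2 lie above the upper dotted line, and Ankrd1 lies left of the left one.

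Other genes of published YAP and TEAD target signatures were read in the same way. Of 12 such genes, 9 were measured on all arrays, and their medians were -0.16 for YAP (1SA) against YAP (WT), -0.22 for YAP (2SA) against YAP (WT) and -0.21 between the mutants. None of the 9 differed 2-fold in any comparison, and 1 of the 9 was higher in YAP (2SA) than in YAP (WT). That gene was the receptor tyrosine kinase Axl, with intensities of 1236, 902.7 and 1378 and a difference of 0.02 in 2SA and -0.38 in 1SA. The differences of YAP (2SA) from YAP (WT) were -0.22 for Igfbp3, a binding protein of insulin-like growth factors, -0.56 for the phosphatase Ptpn14, a negative regulator of YAP, -0.50 for the growth factor Tgfb2 and -0.41 for the ecto-nucleotidase Nt5e. They were -0.21 for Ccdc80, -0.28 for Rbms3, -0.15 for the exchange factor Arhgef17 and -0.04 for the exchange factor Dock5. Igfbp3, Ptpn14 and Arhgef17 were dim, at 33.1, 38.0 and 35.0 in WT, and a stricter filter on dim probes kept 3 of the 9 genes. With normexp the Ptpn14 difference shrank to -0.27 and that of Tgfb2 to -0.31. In YAP (1SA) the same 8 genes ran from -0.73 for Tgfb2 to 0.36 for Arhgef17. Fjx1 was not above background on WT and 1SA, and Myof and Foxf2 on no array. The difference between both lists was not tested.

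The upstream pathway was mostly level. The Hippo kinases and scaffolds, 9 of 10 measured, had medians of -0.01 in YAP (1SA) and 0.10 in YAP (2SA) against YAP (WT), and none of the 9 passed 2-fold. Mob1a, which read 18.6 in WT, 13.6 in 1SA and 17.1 in 2SA, was not well above background on 1SA. Their largest 2SA minus WT differences were 0.61 for Wwc1, the KIBRA scaffold that activates LATS, and 0.35 for the angiomotin Amotl1. Among coactivators and TEAD factors, the mouse Yap1 probe differed by -0.13 and -0.21 from YAP (WT). Whether this probe also reads the human transgene was not checked. The level of the transgene in each liver was thus not known here. The YAP paralogue Wwtr1 (TAZ) differed by 0.28 and 0.30.

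The TEAD factors themselves were not alike in these differences. Tead1 read 204.9 in WT, 201.4 in 1SA and 465.5 in 2SA, so that it was level between YAP (WT) and YAP (1SA), at 0.05, and higher in YAP (2SA), at 1.05. Its other probes were not measured on all arrays. Tead4, named after its values were seen, read 10.3, 8.38 and 60.4 and was well above background on 2SA alone. Its scaled 2SA level was 4.40-fold above the dimmest probe marked well above background on WT, and 5.08-fold above that on 1SA. Some brighter probes lacked this mark, such as Fjx1 on WT and Mob1a on 1SA. These folds are therefore not lower bounds, and no fold between arrays is given for Tead4. The brighter probe of Tead2 differed by -0.05 and the probe of Tead3 by 0.05 between YAP (2SA) and YAP (WT).

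Several target genes also answer to other pathways, so lists of those pathways were read beside them. Targets of SRF and MRTF, which share Ccn1, Ccn2 and Ankrd1 with YAP, had medians of -0.28 in YAP (1SA) and -0.21 in YAP (2SA) over 8 genes, with Acta2 at -1.27 and -0.51 and Myl9 at -0.74 and -0.42. Immediate early genes had medians of 0.27 and 0.19 over 8 genes. Within that list Ier3 was 1.24 and Fos 1.19 higher in YAP (2SA) than in YAP (WT), and 0.06 and 0.30 in YAP (1SA). Targets of p53, the pathway to which Gadd45a belongs, had medians of -0.08 and 0.13 over 8 genes. Among them Bbc3 differed by 0.38 in YAP (1SA) and 0.75 in YAP (2SA), and Phlda3 by -0.57 and 0.70. TGF-beta targets, a pathway that also drives Ccn2, had medians of -0.23 and -0.20 over 6 genes, with Col1a1 at -0.68 and Smad7 at -0.60 in YAP (2SA). Parts of these pathways in the target gene values were not tested.

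Cell type markers were set beside the list for the same reason. Hepatocyte markers, all 6 measured, had a summed scaled level of 3878 in WT, 4152 in 1SA and 3399 in 2SA, with Alb 0.29 and Cyp2e1 0.24 lower in YAP (2SA) than in YAP (WT) on the log2 scale, and Alb was read at 1280 times the 75th percentile on WT. Sinusoidal endothelial markers, all 6 measured, had summed levels of 73.9, 79.4 and 60.6, with a 2SA minus WT difference of -0.59 for Clec4g and 0.37 for Lyve1. Stellate cell markers, cells in which Ccn2 is prominent in fibrosis, had summed levels of 20.8, 22.5 and 13.9 over the 5 of 6 measured on all arrays, and all 5 were lower in YAP (2SA) than in YAP (WT), with Rgs5 at -0.66 and Pdgfrb at -0.61. Reln was not above background on WT and 2SA. Kupffer cell markers had summed levels of 199.2, 142.9 and 98.5, and 6 of 6 were lower in YAP (2SA) than in YAP (WT), with Marco at -1.59 and Clec4f at -1.56. The bile duct markers were close between YAP (WT) and YAP (2SA), with Spp1 at -0.31 and Sox9 at 0.22. In none of these 6 marker lists, mesothelium included, was the median higher in YAP (2SA) than in YAP (WT), though single markers such as Lyve1 and Sox9 were. Cell types outside these lists were not read. The 10 target genes had a summed scaled level of 12.6 in WT, 13.9 in 1SA and 30.1 in 2SA, of which Ccn2 made 9.68 in 2SA. The part of any cell type in the target gene values was not tested.

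**Figure D4:**
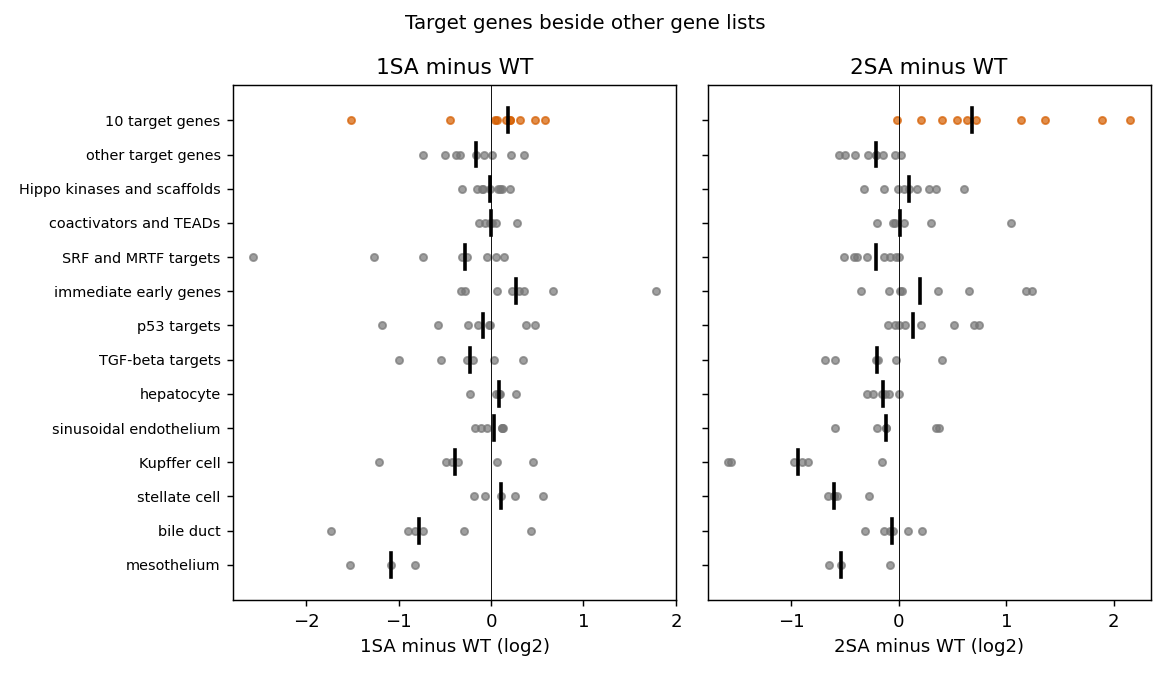
Log2 differences of YAP (1SA) (left) and YAP (2SA) (right) from YAP (WT) for each measured gene of the lists named on the y axis, with black bars at the list medians. The 10 target genes (orange) have a median of 0.68 in YAP (2SA), while the medians of other target genes and of all 6 cell marker lists lie below 0 there.

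The genes closest to Ccn2 in both mutant differences were sought among 13145 named genes. The nearest was Gpc3, an oncofetal glypican of liver, at a Euclidean distance of 0.20 on the log2 scale, with differences of -0.24 in YAP (1SA) and 2.14 in YAP (2SA). Its intensity was 24.3 in WT, 19.4 in 1SA and 117.5 in 2SA, so the first 2 arrays were dim. It was followed by Gal3st2, a sulfotransferase (-0.16 and 2.24), F13a1, the A subunit of coagulation factor XIII (-0.60 and 1.88), the desaturase family member Fads3 (-0.11 and 1.97) and Mab21l4 (-0.48 and 2.55). Fads3 was well away from background, with 714.5 in WT, 626.2 in 1SA and 3076 in 2SA. The likeness was computed over 3 arrays only, on which any gene with a high 2SA value and like values on the other 2 arrays will lie close to Ccn2.

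The target gene differences were recomputed under 8 other settings. Across quantile normalisation, array median scaling, the values of the series matrix and the kept outlier spots, none of the 30 differences of the 10 genes moved by more than 0.0762. Of these settings, the array median and the series matrix change only 1 constant per array, and keeping outlier spots altered no target gene value. Such settings could therefore move the differences little. Normexp moved Ankrd1 most, by 1.14 and 1.18, and left the 2SA minus WT difference at 2.12 for Ccn2, 1.75 for Ccn1, 1.11 for Gadd45a and 1.08 for Amotl2.

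**Figure D5:**
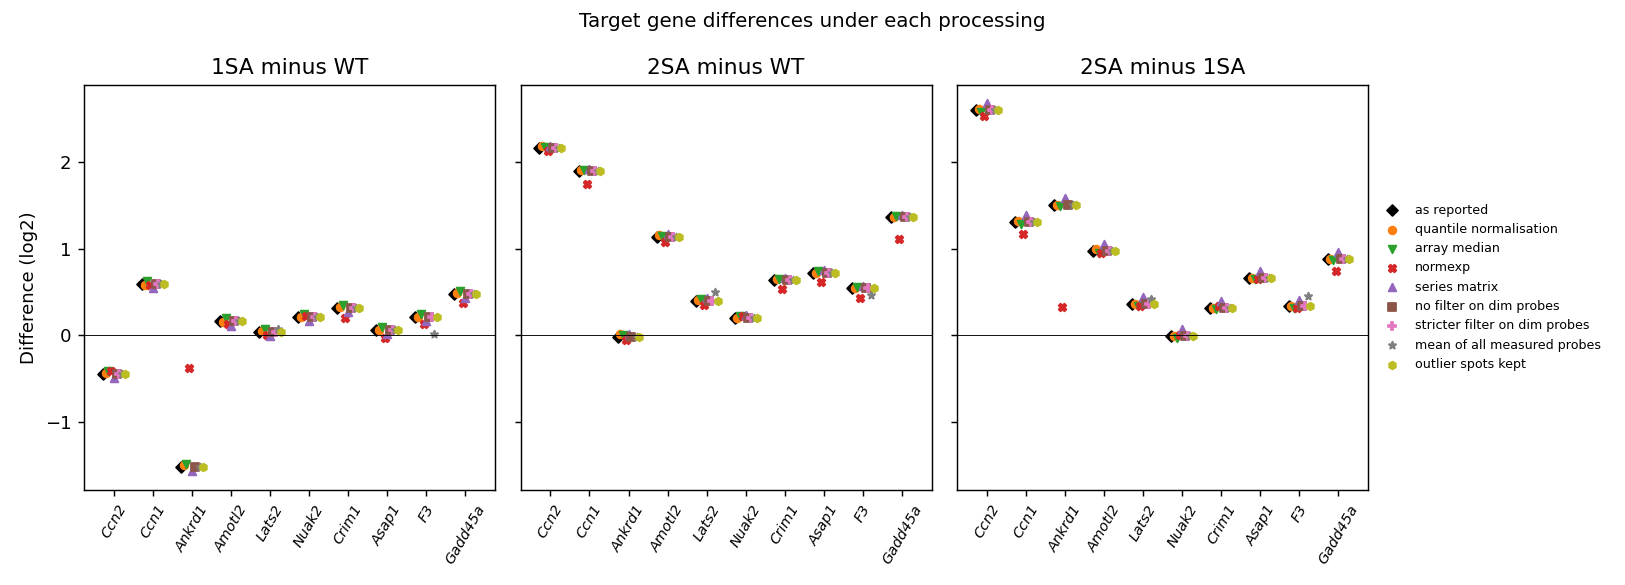
Log2 differences of the 10 target genes in the 3 comparisons under the reported processing (black) and 8 alternatives (coloured symbols). The symbols overlap for most genes, and the normexp values of Ankrd1 lie apart from the rest in the comparisons with YAP (1SA).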

How the data were processed

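RNA of mouse liver was measured on 3 one-colour Agilent SurePrint G3 Mouse arrays, 1 each for WT, 1SA and 2SA, all on 1 slide. The authors processed the scans with Agilent Feature Extraction 10.10.1.1, per the file headers, and deposited spot intensity on a linear scale after background subtraction, not scaled between arrays.

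Here outlier spots were left out (148 to 182 per array), spots of a probe were averaged as log2 values, and divided by the 75th percentile of the array's non-control spots. A probe was measured where at least 50% of its spots were marked well above background, which held for 28972 to 30784 of 55681 probes per array. RefSeq accessions named 26762 probes through a GRCm38.p6 gene table, used for names only because the array was placed on mm9. A gene was its brightest probe measured on all arrays. Probes with repeated spots had a median SD of 0.07 on the log2 scale, and the SD of a difference from them was 0.10. The number of arrays limits the precision.

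The genes named were the 10 targets with all probes, the other measured targets, the 2 of each further list with the largest 2SA minus WT difference, and the 5 nearest to Ccn2. Outside this rule, listed genes not above background on some array, Yap1, Tead2, Tead3, Cnn1 and the bile duct markers were also named, after their values were seen. The members and lists were chosen with earlier results of these data known. The self-test on simulated data, made from copies of the WT array with spot noise, recovered the differences put in. Only differences past 2-fold were put in, and no variation between livers was simulated. The alternatives were quantile normalisation, array median, normexp (offset 50, on median spot and background signal), the authors' series matrix (the same intensity times 1 constant per array, 3.02, 3.08 and 2.81), no or a stricter filter on dim probes, the mean of all probes, outlier spots kept, and 1.5-fold and 3-fold thresholds. Python 3.11.15, pandas 2.3.3, numpy 2.4.6, matplotlib 3.10.9, R 4.3.3 and limma 3.58.1 were used.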

Additional observations from a re-analysis of the deposited data

Results flagged for a closer look

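Ccn2 moved in opposite directions against YAP (WT) in the mutants, each time by more than 2 spot SE, with -0.44 in YAP (1SA) and 2.15 in YAP (2SA). The distance between the mutants was 2.60. With 1 array per group this difference was not tested. The paper reported, by real-time PCR in the first days after injection, Ctgf raised in both mutants and not in YAP (WT). Ccn1, the closest relative of Ccn2 on the list, was above YAP (WT) in both mutants, at 0.59 and 1.89.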

How the results depend on the processing

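No target gene difference past 2-fold changed sign under any alternative that was run, and no replicate could be left out. No paired analysis was possible because WT, 1SA and 2SA had a single array each. With a 1.5-fold threshold in place of 2-fold, 1 target gene was higher in YAP (1SA) than in YAP (WT) in place of 0, 6 were higher in YAP (2SA) than in YAP (WT) in place of 4, and 6 were higher in YAP (2SA) than in YAP (1SA) in place of 3. At this threshold 3.08%, 3.79% and 6.99% of all genes were higher. With a 3-fold threshold, the count lower in YAP (1SA) than in YAP (WT) went from 1 to 0, the count higher in YAP (2SA) than in YAP (WT) from 4 to 2, and that between the mutants from 3 to 1, against 0.213%, 0.25% and 0.631% of all genes. The count higher in YAP (2SA) than in YAP (1SA) was 4 under quantile normalisation and the series matrix, where Amotl2 joined it, and 2 under normexp and the stricter filter, where Ankrd1 left it. With normexp, and with the stricter filter on dim probes, which leaves out Ankrd1, the count lower in YAP (1SA) was 0. The median of the target genes between the mutants was 0.77, and fell to 0.50 under normexp and 0.66 under the stricter filter. For the other target genes, the stricter filter left 3 genes, with medians of -0.34 in YAP (1SA) and -0.035 in YAP (2SA) against YAP (WT) and 0.13 between the mutants, where the sign turned from -0.21. Normexp moved their 2SA minus WT median from -0.22 to -0.10. At 1.5-fold, 1 of them was lower in YAP (1SA) than in YAP (WT), and with no filter on dim probes 1 of 12 was 2-fold higher in YAP (2SA) than in YAP (1SA). Of 30 single differences of the target genes, normexp moved 8 and the mean of all probes moved 2, both in F3, by more than 0.1045, which is the SD given by repeated spots and smaller than the spot SE of about 0.20. Signs changed only in differences under 0.06 in size, in Ankrd1, Lats2, Nuak2 and Asap1. Dim spots limit Ankrd1 and the second probes of Lats2 and F3.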
